A study of Homo sapiens with 18 samples.

Results

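A set of 9 oxidative stress response genes, of 55765 gene symbols counted, was followed through 18 RNA-seq libraries of OVCAR3, an established line of high-grade serous ovarian carcinoma cells. They were taken by name, with earlier results of these data known: HMOX1, NQO1, GCLM, GCLC, TXNRD1, SRXN1, SLC7A11, OSGIN1 and SOD2. All 9 were present in both count tables and all passed the filter on low counts. Cells were grown in medium with 2% fetal bovine serum and, where treated, received antibody at 0.5 μg/ml for 24 h according to the sample descriptions, with a shorter time given elsewhere in the study. In a first series, 3 libraries came from cells given non-specific IgA, 3 from cells given non-specific IgG and 3 from untreated cells. In a second series, 3 came from cells given IgA against BDNF (a secreted neurotrophin), 3 from cells given IgA against TSPAN7 (a tetraspanin of the cell surface) and 3 from untreated cells. The study asked how tumour cells respond when IgA binds to them and passes through them. One cell line was used. The replicates of the first series are described in the study as experiments, while for the second series the sources used here give only a general statement on replicates, and the sample descriptions name no separate cultures, so part of the spread that the p-values measure may be technical.

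NRF2 (gene NFE2L2) is the transcription factor that raises the antioxidant and detoxifying genes of a cell. In resting cells KEAP1 holds it to a ubiquitin ligase built on CUL3 and RBX1 and it is degraded; when oxidants or electrophiles modify KEAP1, NRF2 accumulates, pairs with a small MAF protein and binds antioxidant response elements. BACH1 occupies the same elements as a repressor and is best known for silencing HMOX1, and SQSTM1 (p62) can draw KEAP1 into autophagy. In carcinomas the pathway is known for supplying glutathione and NADPH and for tolerance to drugs and oxidants.

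The 9 genes fall into roles. HMOX1 opens the heme ring and frees iron, and NQO1 reduces quinones. GCLC and GCLM are the catalytic and modifier subunits of glutamate-cysteine ligase, the first step of glutathione synthesis, and SLC7A11 is the transport chain of the exchanger that brings in cystine for it. TXNRD1 reduces thioredoxin and SRXN1 repairs overoxidised peroxiredoxins. OSGIN1 is a growth inhibitor induced by oxidative stress. SOD2, the manganese superoxide dismutase of mitochondria, is also a well-known target of NF-κB.

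Promoters of 7 of the 9 genes were matched in the RefSeq table (GRCh38.p14), those of HMOX1 and SLC7A11 excepted, and each was located at a unique place in GRCh37, the build of the count tables. Within 250 bases before the start, 3 of 11 starts (in GCLM and TXNRD1) held the core letters of an antioxidant response element, TGACNNNGC on either strand, as did 3830 of 35116 RefSeq promoters of the same length (10.9%). The letters of an AP-1 site, TGANTCA, were held by the OSGIN1 promoter and by 2308 of the 35116 (6.57%). The stretch TGACTCA followed by GC would match both motifs, but none of the members' matches overlapped. The sequences below show where these letters stand, in capitals, in 3 members, and the NQO1 promoter beside them as the member with the steadiest rise and no match in its window. A match describes letters only, and bases further upstream were not searched, so no match in the window does not mean that a gene lacks an element. They are written 5′ to 3′ on the strand of the gene: GCLM from the 150 bases before its start (chr1:94374987-94375136, minus strand, the element read on the other strand at positions -34 to -26), TXNRD1 from the same distance (chr12:104609407-104609556, plus strand, element at -99 to -91), OSGIN1 likewise (chr16:83986695-83986844, plus strand, AP-1 letters at -97 to -91, a palindrome read on both strands) and NQO1 from -228 to -79 (chr16:69760542-69760691, minus strand). A second start of TXNRD1 held another match, TGACAAAGC, at -102 to -94 on the opposite strand. All 250 bases of that window lie in annotated exons on the strand of the gene.
GCLM: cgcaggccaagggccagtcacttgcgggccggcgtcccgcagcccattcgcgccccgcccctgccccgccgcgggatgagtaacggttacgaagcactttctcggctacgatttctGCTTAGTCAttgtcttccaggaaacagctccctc
TXNRD1: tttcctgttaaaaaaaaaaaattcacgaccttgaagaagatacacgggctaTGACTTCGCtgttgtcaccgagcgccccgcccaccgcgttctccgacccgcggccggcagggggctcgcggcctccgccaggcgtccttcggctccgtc
OSGIN1: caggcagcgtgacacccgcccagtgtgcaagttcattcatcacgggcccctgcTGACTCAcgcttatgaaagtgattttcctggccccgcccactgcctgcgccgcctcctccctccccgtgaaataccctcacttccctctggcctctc
NQO1: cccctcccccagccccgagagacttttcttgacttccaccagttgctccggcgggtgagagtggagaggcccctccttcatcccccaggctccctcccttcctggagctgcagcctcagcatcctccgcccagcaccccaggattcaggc

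Library totals lay between 27920733 and 42371474 counts (first series) or between 39254350 and 47381836 (second series). One library stood apart: IgA replicate 3 had the lowest total and 19.1% of its counts in mitochondrially encoded genes, against 5.75% to 8.32% in the rest of its series, so members whose values in the IgA group changed most without it are also given that way. Scaling was by TMM, under which the median gene moved by -0.01 on the log2 scale between IgA and IgG. With library size alone it moved by -0.25, and the split of all genes called went from 2265 higher and 2095 lower to 873 higher and 3631 lower. All 8 epithelial and serous carcinoma markers on a fixed list passed the filter, the lowest being WT1 with at least 692 counts in every library. Against IgG, KRT7 and PAX8 were called higher and KRT8 and WT1 lower with IgA. PAX8 lost its call in 7 of 9 fits that left out a library (edgeR adjusted p up to 0.133) and KRT8 in 2 (adjusted p up to 0.126). With library size scaling 0 of these markers were called higher and 3 lower. Of 10 markers of other cell types, 9 were in the files and 6 passed the filter, and CD3E and MS4A1 had 0 to 2 counts in any library. COL1A1 and COL1A2 were called higher with IgA than with IgG. COL1A1 lost its call in 4 and COL1A2 in 7 of 9 fits that left out a library. The list had 1 gene called higher against IgG without IgA replicate 3 and 0 with library size scaling. Against untreated cells 0 genes of that list were called higher, and up to 2 under the alternatives. The summed level of that list was 2492 to 4911 normalised counts in the IgA group, 2151 to 2375 in the IgG group and 2314 to 2555 in untreated cells, and the part of those cells' genes in the results was not tested.

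Values below are normalised counts, meaning a gene's counts put on the scale of the average effective library of that series, listed in the order of replicates 1, 2 and 3 and summarised as mean ± SD (n = 3 libraries a group). Fold changes are log2 values fitted by edgeR, and calls needed an adjusted p below 0.05. The series were tested separately and levels are not compared between them.

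In untreated cells the thioredoxin and quinone reductases dominated the set. Per kilobase of annotated exon, TXNRD1 stood highest in the second series at 1605 ± 55.9 normalised counts, followed by NQO1 at 1171 ± 29.7 and SLC7A11 at 629 ± 7.73. GCLM had 408 ± 27.5, SOD2 264 ± 7.05, GCLC 187 ± 14.1 and HMOX1 164 ± 5.05 per kilobase. SRXN1 (68.2 ± 9.16) and OSGIN1 (25.7 ± 2.15) closed the order. The untreated cells of the first series gave the same order on this scale, apart from SOD2 and GCLC changing places, from 1985 ± 76.5 for TXNRD1 to 13.4 ± 1.63 for OSGIN1. In both untreated groups each gene's 3 libraries lay apart from those of its neighbours in the order, most narrowly GCLC and HMOX1 in the second series (lowest 173 and highest 170.0 per kilobase). In the IgA group 5 neighbouring pairs overlapped: SLC7A11 (387 to 609) with SOD2 (289 to 736), SOD2 with GCLM (260 to 292), GCLM with HMOX1 (148 to 408), HMOX1 with GCLC (150 to 206) and SRXN1 (25.3 to 33.7) with OSGIN1 (18.9 to 37.3). The per-kilobase level of SOD2 is low by construction, because its annotated exons sum to 18144 bases with long alternative ends. SRXN1 is uncertain: 90.7% of its exonic bases are shared with another protein-coding gene on the same strand, and reads there may have been split or dropped in counting.

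Non-specific IgA was set against non-specific IgG to separate the antibody class from the presence of antibody. HMOX1, NQO1 and SOD2 rose, by 2.81-fold, 1.65-fold and 3.69-fold, and the other 6 genes did not pass the test. The 3 called are 33.3% of the members, beside 12.6% of all 18012 genes tested called higher. No member was called lower, against 11.6% of all genes. In 5 members (HMOX1, NQO1, GCLM, OSGIN1 and SOD2, 55.6%) every IgA library lay above every IgG library, as in 19.7% of all genes. The median log2 fold change of the 9 was 0.31, against -0.01 for all genes. The plot of values by library shows the 9 genes in all 6 groups.

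**Figure D1:**
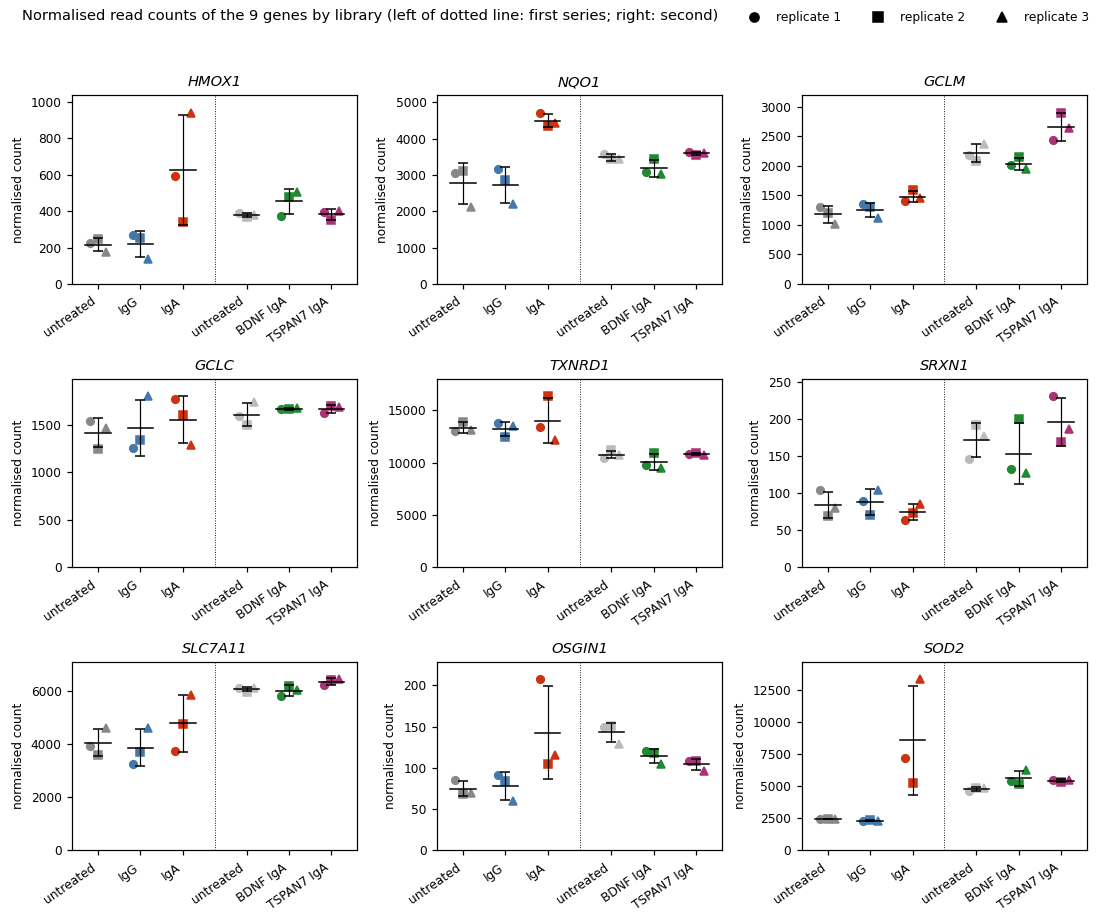
Normalised count of each of the 9 genes in each library, by group, with the first series left of the dotted line and the second series right of it; point shapes give the replicate number, horizontal bars the mean and vertical bars the SD of 3 libraries. HMOX1, NQO1 and SOD2 lie higher in all 3 IgA libraries than in any IgG or untreated library of the same series, whereas for these 3 genes the second series spans a narrower range.

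HMOX1 (chr22:35776354-35790207, plus strand) had 593, 342 and 941 normalised counts with IgA, 269, 253 and 139 with IgG and 223, 245 and 176 in untreated cells. All 3 IgA libraries were above the rest, with replicate 3 the highest and replicate 2 the nearest to the controls. The mean was 625 ± 301 with IgA against 220 ± 70.6 with IgG, a log2 fold change of 1.49 (edgeR adjusted p = 0.00568, SE 0.32), and against untreated cells (215 ± 35.3) the change was 1.54 (SE 0.32, adjusted p = 0.00467). Without IgA replicate 3 the changes were 1.07 (adjusted p = 0.0108) and 1.12 (adjusted p = 0.00821).

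NQO1 (chr16:69740899-69760571, minus strand) was the most even of the genes that rose. It had 4715, 4358 and 4414 normalised counts with IgA, 3156, 2852 and 2187 with IgG and 3065, 3118 and 2104 in untreated cells. The IgA libraries stood clear above all 6 controls, and replicate 3 was the lowest of both control groups. NQO1 averaged 4495 ± 192 with IgA against 2731 ± 495 with IgG, a log2 fold change of 0.72 (edgeR adjusted p = 0.00596, SE 0.16). Against untreated cells, at 2763 ± 571, the change was 0.70 (SE 0.16, adjusted p = 0.00649). Without IgA replicate 3 the changes of NQO1 were 0.73 and 0.72, both called. Both calls were lost with library size scaling, at 0.48 (adjusted p = 0.058) and 0.49 (adjusted p = 0.0554).

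SOD2 (chr6:160090101-160183561, minus strand) gave the greatest change of the 9. Its normalised counts were 7187, 5240 and 13351 with IgA, 2268, 2375 and 2333 with IgG and 2444, 2444 and 2420 in untreated cells. The controls were tight and the IgA libraries wide, with replicate 3 far above the other IgA libraries. SOD2 averaged 8593 ± 4234 with IgA, 2325 ± 53.7 with IgG and 2436 ± 13.8 in untreated cells. The log2 fold change was 1.88 against IgG (edgeR adjusted p = 0.000223, SE 0.25) and 1.82 against untreated cells (SE 0.24, adjusted p = 0.000263), and it was 1.42 and 1.35 without IgA replicate 3, both still called. Its exons overlap WTAP and ACAT2 on the other strand by 437 and 133 bases, and without stranded counting such reads cannot be assigned.

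OSGIN1 (chr16:83964916-83999937, plus strand) was a low gene, with 54 to 185 counts in the libraries of the first series. Its normalised counts were 207, 105 and 115 with IgA, 91.5, 83.8 and 59.3 with IgG and 85.1, 68.9 and 70.1 in untreated cells. Every IgA library was above every control, replicate 1 by far the most. Against untreated cells OSGIN1 rose by 0.94 on the log2 scale (edgeR adjusted p = 0.0363, SE 0.30), and against IgG the difference of 0.86 (SE 0.30) narrowly missed the threshold (adjusted p = 0.0511). The call against untreated cells was lost when IgA replicate 1 (0.56, adjusted p = 0.17), IgG replicate 2 (adjusted p = 0.0568) or untreated replicate 1, 2 or 3 (adjusted p = 0.0689, 0.11 and 0.115) was left out. It was also lost with library size scaling (0.73, edgeR adjusted p = 0.101) and in the fit of only 6 libraries (adjusted p = 0.0625). Against IgG it was gained without IgA replicate 2 (1.05, adjusted p = 0.0241) or 3 (0.99, adjusted p = 0.0281), with DESeq2 (adjusted p = 0.039), without a filter (adjusted p = 0.0379), with a stricter filter (adjusted p = 0.0498) and without mitochondrial and ribosomal RNA genes (adjusted p = 0.0481). The gene shares 457 exonic bases with MLYCD on the same strand.

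The glutathione genes did not pass the test. GCLM (chr1:94350755-94375012, minus strand) had 1408, 1583 and 1449 normalised counts with IgA, 1346, 1300 and 1117 with IgG and 1311, 1209 and 1018 in untreated cells. The IgA libraries lay just above all controls, at a log2 difference of 0.24 from IgG (95% interval -0.02 to 0.50, edgeR adjusted p = 0.169) and 0.33 from untreated cells (0.07 to 0.59, adjusted p = 0.0642). GCLC (chr6:53362139-53481768, minus strand) had 1776, 1599 and 1292 with IgA and 1260, 1344 and 1805 with IgG, so the groups overlapped fully, and untreated cells had 1541, 1246 and 1461. Its difference from IgG was 0.08 (interval -0.25 to 0.42, adjusted p = 0.731). SLC7A11 (chr4:139085251-139163503, minus strand) had 3734, 4775 and 5875 with IgA, 3273, 3707 and 4627 with IgG and 3954, 3608 and 4632 in untreated cells. IgA replicates 2 and 3 topped all controls and replicate 1 did not, with a difference of 0.31 from IgG (interval -0.05 to 0.67, adjusted p = 0.194), or 0.14 (adjusted p = 0.548) without IgA replicate 3.

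The peroxide-handling pair showed no call either. TXNRD1 (chr12:104609557-104744085, plus strand), one of the most abundant transcripts of the set, had 13416, 16382 and 12189 normalised counts with IgA, 13757, 12486 and 13481 with IgG and 12983, 13912 and 13069 in untreated cells. Only IgA replicate 2 stood outside the control range on the high side and replicate 3 was the lowest of the 9. The log2 difference from IgG was 0.08 (interval -0.16 to 0.32, edgeR adjusted p = 0.641). SRXN1 (chr20:627259-633844, minus strand) had 63.9, 72.9 and 85.3 with IgA, 89.6, 70.1 and 104 with IgG and 104, 69.8 and 79.8 in untreated cells, from 54 to 100 counts a library. The groups overlapped and the interval was wide, at -0.25 (-0.84 to 0.34) from IgG. Without IgA replicate 3 the differences from IgG were 0.20 for GCLC, 0.25 for GCLM, 0.17 for TXNRD1 and -0.36 for SRXN1, none called.

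Against untreated cells, a comparison that uses the same IgA libraries, HMOX1, NQO1, OSGIN1 and SOD2 were called higher. They make 44.4% of the members, beside 12.9% of all genes tested, none was called lower (12.1% of all genes), and the same 5 members as against IgG lay wholly above the untreated libraries (19.8% of all genes). Non-specific IgG itself was compared with untreated cells, a comparison of antibody against none. None of the 9 genes was called in that comparison by edgeR or DESeq2, and none had an unadjusted p under 0.05, against 0.494% of all genes. Their log2 differences ran from -0.07 (SLC7A11, interval -0.43 to 0.29) to 0.09 (GCLM, interval -0.17 to 0.35) and 0% of all genes were called in either direction. SOD2 alone had groups that did not overlap, the IgG libraries being lower by 0.07 (interval -0.58 to 0.45), as were 3.43% of all genes. The share of 0.494% is below what a threshold of 0.05 gives where nothing differs. The fit shares its estimate of spread over all groups of the series, so the IgA libraries enter these p-values and intervals. For SOD2 the SD was 4234 with IgA, 53.7 with IgG and 13.8 in untreated cells. Fitting only the 6 libraries compared also called 0 genes.

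In the second series the members moved little. SOD2 rose by 1.18-fold with BDNF IgA and by 1.14-fold with TSPAN7 IgA, and GCLM rose by 1.20-fold with TSPAN7 IgA. No member was called lower, beside 3.18% of all genes with BDNF IgA and 4.08% with TSPAN7 IgA. With BDNF IgA 11.1% of the members were called higher, beside 4.49% of all 18732 genes tested, and with TSPAN7 IgA 22.2%, beside 4.46%. Both comparisons use the same untreated libraries. Of the cell markers, KRT7, CDH1 and PAX8 were called higher with BDNF IgA, KRT7 and the leukocyte gene PTPRC higher and WT1 and MUC16 lower with TSPAN7 IgA, and their part in the members' changes was not tested. The PTPRC call was lost in 7 of 9 fits that left out a library (edgeR adjusted p up to 0.215). The CDH1 and PAX8 calls were lost in 5 and 2 such fits. Whether the responses differed between the first and second series was not tested. The plot of fold changes sets the 6 comparisons side by side.

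**Figure D2:**
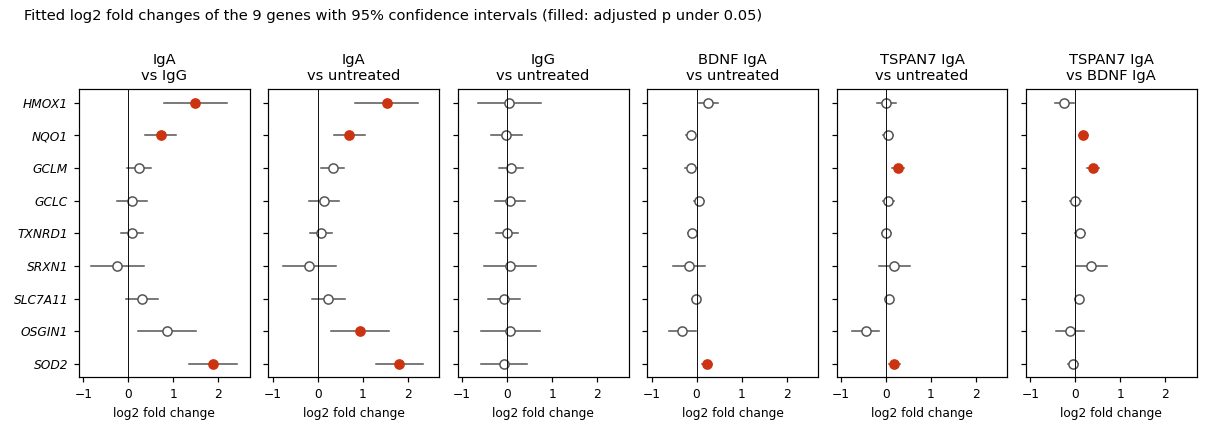
Fitted log2 fold change of each of the 9 genes (horizontal axis) in each of the 6 comparisons, with bars for the 95% confidence interval and filled points for an adjusted p under 0.05. Against IgG, HMOX1, NQO1 and SOD2 are filled at 1.49, 0.72 and 1.88; no point is filled for IgG against untreated cells, and the filled points of the second series lie between 0.18 and 0.39.

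SOD2 had 5436, 5182 and 6280 normalised counts with BDNF IgA, 5506, 5331 and 5492 with TSPAN7 IgA and 4639, 4841 and 4875 in untreated cells. Every antibody-treated library was above every untreated one, as in 12.8% of all genes with BDNF IgA and 14.4% with TSPAN7 IgA, and replicate 3 of the BDNF IgA group was the highest. The log2 fold change was 0.24 with BDNF IgA (edgeR adjusted p = 0.0106, SE 0.06) and 0.19 with TSPAN7 IgA (SE 0.06, adjusted p = 0.0412). SOD2 did not differ beyond the spread between the antibodies, at -0.05 (interval -0.17 to 0.07). The BDNF IgA call was lost without BDNF IgA replicate 3 (0.15, adjusted p = 0.0912) or untreated replicate 1 (0.21, adjusted p = 0.0645). The TSPAN7 IgA call was lost, with adjusted p from 0.0513 to 0.158, without BDNF IgA replicate 1, or any single TSPAN7 IgA or untreated library.

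GCLM had 2015, 2151 and 1942 normalised counts with BDNF IgA, 2436, 2904 and 2637 with TSPAN7 IgA and 2176, 2088 and 2379 in untreated cells. The TSPAN7 IgA libraries were the 3 highest of the series, while the BDNF IgA libraries overlapped the untreated ones. GCLM rose by 0.26 on the log2 scale with TSPAN7 IgA against untreated cells (edgeR adjusted p = 0.0109, SE 0.06) and was higher by 0.39 than with BDNF IgA (SE 0.06, adjusted p = 0.000663). Against untreated cells its call was lost without TSPAN7 IgA replicate 2 (0.20, adjusted p = 0.11), untreated replicate 1 (0.25, adjusted p = 0.0539) or untreated replicate 2 (0.22, adjusted p = 0.0738), and the call against BDNF IgA kept its side of the threshold in every alternative run. Its partner GCLC showed no such difference, with 1661, 1670 and 1680 under BDNF IgA, 1620, 1694 and 1689 under TSPAN7 IgA and 1594, 1494 and 1737 in untreated cells. The interval for GCLC between TSPAN7 IgA and untreated cells was -0.07 to 0.17.

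NQO1 was higher with TSPAN7 IgA than with BDNF IgA. Its normalised counts were 3628, 3555 and 3599 with TSPAN7 IgA, 3068, 3446 and 3025 with BDNF IgA and 3582, 3427 and 3432 in untreated cells. The TSPAN7 IgA libraries were nearly equal and above all BDNF IgA libraries, of which replicates 1 and 3 were below the untreated range. The log2 difference between the antibodies was 0.18 (edgeR adjusted p = 0.0345, SE 0.05), while neither antibody was called against untreated cells, at 0.05 (interval -0.06 to 0.15) and -0.13 (interval -0.24 to -0.03, adjusted p = 0.122). NQO1 lost the call between the antibodies with library size scaling (adjusted p = 0.0578), in the fit of only 6 libraries (adjusted p = 0.0646) and without BDNF IgA replicate 1 or 3, any TSPAN7 IgA library or untreated replicate 1 (adjusted p from 0.0507 to 0.191). With GCLM it made 22.2% of the members called higher with TSPAN7 IgA than with BDNF IgA, beside 3.42% of all genes, and none was called lower (4.5% of all genes). Those 2 and SLC7A11 had groups that did not overlap, as had 11.5% of all genes. The count was 4 without BDNF IgA replicate 2, which added TXNRD1 (0.17, adjusted p = 0.00747) and SRXN1 (0.60, adjusted p = 0.00812).

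OSGIN1 was lower in both antibody groups but passed no test. It had 120, 118 and 105 normalised counts with BDNF IgA, 108, 109 and 96.4 with TSPAN7 IgA and 149, 151 and 129 in untreated cells. All 6 treated libraries were below the untreated ones, as were the treated libraries of 12% and 14% of all genes. The log2 differences were -0.32 (interval -0.62 to -0.02, edgeR adjusted p = 0.186) and -0.45 (interval -0.75 to -0.15, adjusted p = 0.0584). The latter passed the threshold when only the 6 libraries compared were fitted (adjusted p = 0.0454) or when BDNF IgA replicate 2 was left out (adjusted p = 0.0451).

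HMOX1 varied most in the BDNF IgA group. It had 375, 476 and 508 normalised counts there, 393, 349 and 403 with TSPAN7 IgA and 392, 369 and 377 in untreated cells. Replicates 2 and 3 with BDNF IgA were above all other libraries and replicate 1 was within the untreated range. The log2 difference from untreated cells was 0.26 (interval 0.04 to 0.47, edgeR adjusted p = 0.136), called only when BDNF IgA replicate 1 was left out (0.38, adjusted p = 0.0308), and with TSPAN7 IgA it was 0.01 (interval -0.21 to 0.23).

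SLC7A11, TXNRD1 and SRXN1 had no call. SLC7A11 had 5813, 6198 and 6058 normalised counts with BDNF IgA, 6221, 6410 and 6455 with TSPAN7 IgA and 6117, 5985 and 6112 in untreated cells. All 3 TSPAN7 IgA libraries exceeded the other 6, by a log2 difference of 0.07 from untreated cells (interval -0.02 to 0.15), and 14.4% of all genes likewise had no overlap on the higher side. TXNRD1 had 9756, 10930 and 9526 with BDNF IgA, 10841, 10893 and 10702 with TSPAN7 IgA and 10446, 11180 and 10681 in untreated cells, overlapping throughout. Its interval against untreated cells was -0.20 to 0.00 with BDNF IgA and -0.10 to 0.11 with TSPAN7 IgA. SRXN1 had 132, 201 and 127 with BDNF IgA, 232, 170 and 187 with TSPAN7 IgA and 147, 192 and 178 in untreated cells. Its groups also overlapped, at -0.17 (interval -0.52 to 0.18) and 0.19 (interval -0.16 to 0.53).

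The transcripts of the pathway's own regulators moved with non-specific IgA. Of 12 regulators, 6 rose and 1 fell against IgG, with a median log2 fold change of 0.40. Over all genes 12.6% were called higher and 11.6% lower, so the single gene that fell is no more than that share. NFE2L2, which encodes NRF2, had 4612, 4007 and 4990 normalised counts with IgA, 2790, 2854 and 2839 with IgG and 2875, 2610 and 2839 in untreated cells, so every IgA library was above every control. NFE2L2 rose by 0.68 against IgG (edgeR adjusted p = 0.000565, SE 0.10). KEAP1, its inhibitor, had 1047, 1125 and 744 with IgA, 1547, 1429 and 1244 with IgG and 1453, 1576 and 1341 in untreated cells, with every IgA library below every control. KEAP1 fell by 0.53 against IgG on the log2 scale (SE 0.15, adjusted p = 0.0211) and lost the call without IgG replicate 1 (adjusted p = 0.0791) or 2 (adjusted p = 0.0666) and in the fit of only 6 libraries (adjusted p = 0.0506).

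Other regulators moved too. BACH1, the repressor, had 2726, 2781 and 2736 normalised counts with IgA, 1658, 1534 and 1766 with IgG and 1715, 1620 and 1653 in untreated cells. BACH1 rose by 0.73 (edgeR adjusted p = 0.0002, SE 0.09) with no overlap of groups. MAFF, a small MAF partner of both NRF2 and BACH1, had 2238, 1216 and 2178 with IgA, 134, 150 and 181 with IgG and 197, 188 and 165 in untreated cells, the greatest change on the list. MAFF rose by 3.60 against IgG (SE 0.23, adjusted p = 6.75e-07). MAFK (0.56), NFE2L1 (0.56) and SQSTM1 (0.35) also rose, and RBX1 joined them against untreated cells at 0.59. Among fits that left out a library, MAFK lost its call against IgG in 5 (edgeR adjusted p up to 0.11) and SQSTM1 in 2 (adjusted p up to 0.0708). RBX1 lost its call against untreated cells in 4 (adjusted p up to 0.0902). Against untreated cells KEAP1 fell by 0.58 (not called without untreated replicate 2, adjusted p = 0.0564), NFE2L2 rose by 0.71, BACH1 by 0.73 and MAFF by 3.35, and without IgA replicate 3 the list had 7 genes called higher and 1 lower in both comparisons. Over all fits that left out a library, 4 to 7 regulators were called higher against IgG and 5 to 7 against untreated cells. With library size scaling 3 regulators were called higher against IgG.

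With the specific antibodies 3 and 2 of the 12 regulators were called, in comparisons where 4.49% and 4.46% of all genes were called higher and 3.18% and 4.08% lower. With BDNF IgA NFE2L3 rose by 0.28 and SQSTM1 by 0.18, and KEAP1 fell by 0.19 (edgeR adjusted p = 0.0187), a call that was lost without BDNF IgA replicate 1 (adjusted p = 0.124) or untreated replicate 1 or 2 (adjusted p = 0.0571 and 0.114). With TSPAN7 IgA MAFK rose by 0.42 and NFE2L3 by 0.39. NFE2L2 was at 0.01 and 0.06 on the log2 scale (adjusted p = 0.895 and 0.517) and BACH1 at 0.13 and 0.12 (adjusted p = 0.139 and 0.156). None of the 12 was called between the antibodies or between IgG and untreated cells. With BDNF IgA the number of regulators called higher was 0 without BDNF IgA replicate 3 or untreated replicate 1 or 2, and with TSPAN7 IgA it was 1 without TSPAN7 IgA replicate 2 or any untreated library.

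Among 23 further NRF2 targets, 22 passed the filter and 10 rose with non-specific IgA against IgG, with none falling (12.6% and 11.6% of all genes) and a list median of 0.36. AKR1C2 (1.73), AKR1C3 (1.13) and AKR1C1 (0.87), aldo-keto reductases that reduce carbonyls and steroids, led with TXN (0.74), the thioredoxin that TXNRD1 reduces. The AKR1C genes are near-identical copies, so their separate counts are uncertain. AKR1C1 was at 0.35 (edgeR adjusted p = 0.178) without IgA replicate 3 and kept its call in 1 of 9 fits that left out a library. AKR1C2 had 233, 149 and 404 normalised counts with IgA and 103, 89.2 and 41.7 with IgG, following HMOX1 in its order over the IgA libraries. TXN had 2922, 2130 and 2151 with IgA and 1525, 1510 and 1290 with IgG, the groups well apart. Against untreated cells 12 rose and none fell. The number called higher against IgG was 9 without IgA replicate 3, 6 without IgG replicate 3 and 3 with library size scaling, and that against untreated cells was 5 without untreated replicate 3.

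None of the 22 targets rose and 3 fell with BDNF IgA, beside 4.49% and 3.18% of all genes: TXN by 0.28, AKR1C3 by 0.26 and TKT, a transketolase of the pentose phosphate pathway, by 0.19. With TSPAN7 IgA the drug exporter ABCC3 fell by 0.26 and no target rose, beside 4.08% and 4.46% of all genes. Between the antibodies AKR1C3 (0.22), PRDX1 (0.19) and TALDO1 (0.14) were higher with TSPAN7 IgA, and ABCC3 (-0.45) and EPHX1 (-0.25) lower. Of 9 fits that left out a library, TALDO1 lost this call in 8, AKR1C3 in 7, PRDX1 in 5, EPHX1 in 2 and ABCC3 in 0. The medians with BDNF IgA and TSPAN7 IgA were -0.05 and -0.04, against 0.00 for all genes. Single libraries moved these counts: 1 target was called lower with BDNF IgA without its replicate 1 and 5 without its replicate 2, none with TSPAN7 IgA without its replicate 2 or 3 or untreated replicate 1 or 3, and between the antibodies the count called higher was 0 without BDNF IgA replicate 1 or 3 or TSPAN7 IgA replicate 1 or 3, and 8 without BDNF IgA replicate 2.

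**Figure D3:**
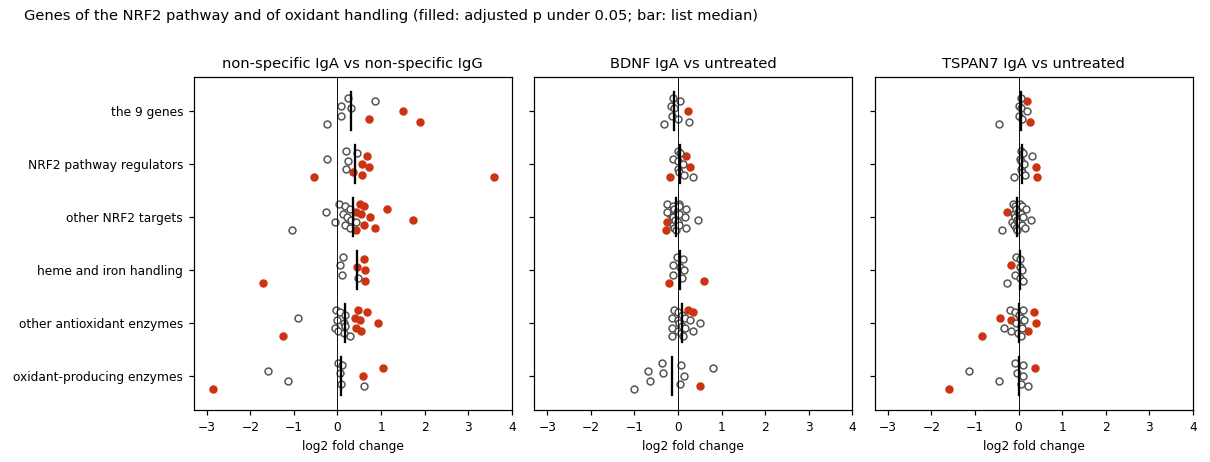
Fitted log2 fold change (horizontal axis) of the genes that passed the filter in each of 6 lists, for non-specific IgA against IgG, BDNF IgA against untreated cells and TSPAN7 IgA against untreated cells; each point is a gene, filled points have an adjusted p under 0.05 and the vertical bar is the median of the list. Against IgG the list medians lie between 0.07 and 0.44, MAFF at 3.60 is the rightmost point and NOX5 at -2.85 the leftmost.

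Genes of heme and iron handling rose in part. Of 9 heme and iron genes, FTH1 (0.64) and FTL (0.63), the subunits of the iron store ferritin, BLVRA (0.61), which reduces biliverdin, and ALAS1 (0.44), the first enzyme of heme synthesis, rose with non-specific IgA against IgG, while SLC40A1, the iron exporter ferroportin, fell by 1.71 (12.6% and 11.6% of all genes were called higher and lower). SLC40A1 had 206, 245 and 61.6 normalised counts with IgA against 422, 476 and 814 with IgG, with replicate 3 the extreme of both groups. Processed copies of ferritin genes make FTH1 and FTL uncertain. ALAS1 lost its call against IgG in 7 of 9 fits that left out a library (edgeR adjusted p up to 0.115) and BLVRA in 3 (adjusted p up to 0.11). The count of 4 higher was 2 without IgA replicate 1 or IgG replicate 2 or 3, and 1 with library size scaling. With BDNF IgA SLC40A1 rose by 0.59 and TFRC, the transferrin receptor, fell by 0.21. TFRC fell by 0.18 with TSPAN7 IgA, and SLC40A1 was lower by 0.85 than with BDNF IgA.

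Of 19 other antioxidant genes 7 rose and 1 fell with non-specific IgA against IgG, beside 12.6% and 11.6% of all genes, or 6 and 1 without IgA replicate 3. The greatest rises were in GPX1 (0.93), a glutathione peroxidase, SLC3A2 (0.68), the heavy chain that carries SLC7A11 to the membrane, and PRDX4 (0.55), a peroxiredoxin of the endoplasmic reticulum. TXNIP, which binds and restrains thioredoxin, fell by 1.26, from 3800, 4846 and 4918 normalised counts with IgG to 1632, 1057 and 2990 with IgA. With TSPAN7 IgA TXNIP fell by 0.84, to 3585, 3351 and 3467 from 6285, 6267 and 6114 in untreated cells, and it was lower by 0.85 than with BDNF IgA. PRDX4 (0.39), SLC3A2 (0.35) and GPX8 (0.23) rose with TSPAN7 IgA, and GPX3 (-0.43) and CAT (-0.18) fell beside TXNIP. CAT lost its call in 7 of 9 fits without a library (edgeR adjusted p up to 0.176), GPX8 in 3 and GPX3 in 2, and the count called lower was 1 without TSPAN7 IgA replicate 2 or untreated replicate 3. With BDNF IgA GLRX (0.34) and PRDX4 (0.22) rose, a count of 2 that ranged from 0 (without BDNF IgA replicate 1 or 3, TSPAN7 IgA replicate 2 or untreated replicate 2 or 3) to 6 (without BDNF IgA replicate 2). The count of 7 higher against IgG was 4 without IgG replicate 2, 3 without IgG replicate 3 and 2 with library size scaling.

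The sources of oxidants were mostly low. Of 16 oxidant-producing genes 10 passed the filter, and with non-specific IgA against IgG XDH, the xanthine dehydrogenase that can act as an oxidase, rose by 1.04 and RAC1, a GTPase used by NADPH oxidases, by 0.59. With NOX5 called lower, both counts are near the shares of all genes (12.6% higher and 11.6% lower). NOX5, a calcium-regulated NADPH oxidase, fell by 2.85 from a low level, 44.8, 39.2 and 41.7 normalised counts with IgG against 7.8, 8.0 and 0 with IgA. XDH had 1295, 1316 and 1700 with non-specific IgA against 784, 709 and 606 with IgG. It was also higher with both specific antibodies, at 1689, 1671 and 1662 with BDNF IgA (0.50) and 1589, 1525 and 1506 with TSPAN7 IgA (0.38) against 1210, 1163 and 1172 in untreated cells. NOXO1, an organizer of NADPH oxidase, fell by 1.61 with TSPAN7 IgA from 24.6 ± 9.36 normalised counts, a call that was lost without TSPAN7 IgA replicate 2 or 3 or untreated replicate 2 or 3.

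Some members also belong to other stress programmes, whose genes were counted beside them. Of all genes, 12.6% were called higher and 11.6% lower with non-specific IgA against IgG. With BDNF IgA these shares were 4.49% and 3.18%, and with TSPAN7 IgA 4.46% and 4.08%. For SOD2, 8 of 9 NF-κB targets rose with non-specific IgA against IgG, led by the inhibitor TNFAIP3 (4.17) and the anti-apoptotic gene BIRC3 (4.05), 7 rose with BDNF IgA (TNFAIP3 0.49), or 3 without BDNF IgA replicate 1, and 6 with TSPAN7 IgA (TNFAIP3 0.77). For HMOX1, which heat shock also induces, all 5 heat shock genes rose with non-specific IgA against IgG, HSPA6 by 6.10 and HSPA1B by 2.24, whereas with BDNF IgA HSPA1A fell by 0.26 and with TSPAN7 IgA HSPA1B rose by 0.30. The HSPA1A call was lost without BDNF IgA replicate 3 or untreated replicate 3 (edgeR adjusted p up to 0.0737), and that of HSPA1B without TSPAN7 IgA replicate 1 or untreated replicate 1 or 2 (adjusted p up to 0.0826). HSPA1A and HSPA1B are near-identical copies. For SLC7A11, a target of ATF4, 3 of 8 ATF4 pathway genes rose with non-specific IgA against IgG, DDIT3 by 2.17, ATF3 by 1.89 and TRIB3 by 0.89. The TRIB3 call was lost in 3 of 9 fits that left out a library (edgeR adjusted p up to 0.136). Under the alternatives that kept all libraries, 0 to 3 genes of this list were called lower. With BDNF IgA 5 of the 8 rose, led by CHAC1 (0.51), or 1 without BDNF IgA replicate 3 or untreated replicate 1. With TSPAN7 IgA 7 rose, led by ATF3 (0.82), while SLC7A11 itself was not called in any comparison.

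The genes whose levels followed a member most closely were found by Pearson correlation over the 18 libraries, after subtracting the mean of the untreated libraries of each series, among 13338 genes. The points share the libraries and the contrast of the IgA group, so r is a description. SOD2 was followed by TNIP1 (0.99), ZFP36L1 (0.99) and CTTNBP2NL (0.99), NQO1 by HSP90AB1 (0.98), RSU1 (0.98) and PRPS1 (0.98), and HMOX1 by TGFB1 (0.98), BASP1 (0.96) and FTL (0.96). Among the genes closest to OSGIN1 were PKM (0.95) and SEC11A (0.94). For the members without a call in the first series the closest genes were SKA1, MCMBP and DIAPH3 for GCLM (0.91, 0.90 and 0.89), RAB3GAP1, CDK17 and PHF3 for SLC7A11 (0.92, 0.90 and 0.88), GRPEL2, MKRN2 and CCDC71L for GCLC (0.87, 0.84 and 0.83) and TSC22D2, FAM120A and DENND1B for TXNRD1 (0.86, 0.86 and 0.85). SRXN1 had the weakest matches, DKC1, CRAMP1L and WRN (0.72, 0.71 and 0.70).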

How the data were processed

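RNA of 18 OVCAR3 libraries was measured. Per the study's methods, cutadapt trimmed the reads, STAR mapped them to GRCh37 and featureCounts assigned the unique ones to genes. The submitters' processing notes list bcl2fastq 2.20.0.422, cutadapt 1.8.1 and HTSeq 0.6.1 instead of featureCounts. What the authors deposited were raw counts per gene symbol, not normalised, in 1 table per series. Strand use in counting is not given in the sources used here. Groups and replicate numbers came from the sample titles. The second table held 57820 rows, of which 2055 repeated another row exactly (1.99% to 2.46% of a library's counts) and were dropped, leaving the same 55765 symbols as the first.

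Each series was fitted once with its 9 libraries in edgeR 4.0.16 (R 4.3.3; TMM, filterByExpr, quasi-likelihood F test, two-sided, group only), with Benjamini-Hochberg adjustment over all genes tested. SE is the log2 fold change over the square root of F. The authors had used DESeq2. Replicates differed by more than sampling noise, so none was merged. Only between IgG and untreated cells did all 3 pairs of same-numbered libraries have deviations with a correlation over 0.1. Intervals are 95% and come from the fit, and without molecular identifiers reads cannot be taken as separate molecules. Positions and exons are from the GENCODE annotation mapped to GRCh37, and promoters from RefSeq.

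The members and all lists (regulators, other NRF2 targets, heme and iron, other antioxidants, oxidant producers, NF-κB, ATF4, heat shock and cell type markers) were chosen with earlier results of these data known. All members were named whatever their values, with NFE2L2, KEAP1, BACH1, called regulators, up to 4 called genes of each other list in a comparison, and the 3 genes with the highest r to each member among genes with at least 50 normalised counts in each series (log2 CPM, prior count 2). One gene that this rule names is not reported here. Alternatives were DESeq2 1.42.0, RLE and library size scaling, no filter, a stricter filter (50 counts in 3 libraries), omission of mitochondrial and ribosomal RNA genes, a replicate block, fits of only the 6 libraries compared, an adjusted p under 0.01 and leaving out each library. Running them on the pathway lists as well was decided after seeing the data. The method was tested on simulated data with the same spread in every group. The groups of the first series differed in spread, a case which that test does not cover.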

Additional observations from a re-analysis of the deposited data

How the results depend on the processing

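The calls of HMOX1 and SOD2 with non-specific IgA held against IgG and untreated cells in every alternative, and that of NQO1 in every one but library size scaling. The number of members called higher against IgG was 2 to 4 over all alternatives. Against untreated cells it fell from 4 to 2 with library size scaling. With BDNF IgA the count called higher was 0 at an adjusted p under 0.01 and 0 to 2 when single libraries were left out, and the count called lower was 0 to 2, the 2 being NQO1 (-0.20) and TXNRD1 (-0.16) without BDNF IgA replicate 2. With TSPAN7 IgA the count called higher was 0 at an adjusted p under 0.01 and 0 to 2 without single libraries, and that called lower was 1 (OSGIN1) in the fit of only 6 libraries and 0 to 1 without single libraries. Between TSPAN7 IgA and BDNF IgA the count called higher was 1 with library size scaling, in the fit of only 6 libraries and at an adjusted p under 0.01, and 1 to 4 without single libraries, and that called lower was 0 to 1, HMOX1 (-0.37) without BDNF IgA replicate 1. Without single libraries, all genes called against IgG numbered 1339 to 2520 higher and 1227 to 2766 lower (2265 and 2095 with all 9; the lowest without IgG replicate 3), against untreated cells 1365 to 2512 and 1236 to 2717 (2316 and 2187; the lowest without untreated replicate 3), with BDNF IgA 429 to 1505 and 293 to 1293 (841 and 596, the highest without BDNF IgA replicate 2), with TSPAN7 IgA 429 to 1156 and 328 to 1148 (836 and 764, the lowest without TSPAN7 IgA replicate 2) and between those antibodies 196 to 1554 and 286 to 1722 (641 and 843, the lowest without BDNF IgA replicate 3 and the highest without its replicate 2). The cause of these changes was not tested.

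Values that turned direction were all small and never called. With library size scaling GCLC became -0.14 and TXNRD1 -0.14 against IgG, GCLC -0.061 and TXNRD1 -0.12 for IgA against untreated cells, NQO1 0.00997, TXNRD1 0.0171 and BACH1 0.0159 for IgG against untreated cells and SLC7A11 0.0050 for BDNF IgA. Leaving out single libraries, IgG against untreated cells gave HMOX1 -0.12 to 0.28, NQO1 -0.18 to 0.12, GCLM -0.0095 to 0.17, GCLC -0.12 to 0.15, TXNRD1 -0.036 to 0.033, SRXN1 -0.077 to 0.23, SLC7A11 -0.22 to 0.036, OSGIN1 -0.056 to 0.23, NFE2L2 -0.015 to 0.054, KEAP1 -0.12 to 0.031 and BACH1 -0.058 to 0.043. It gave GCLC -0.024 to 0.25 and TXNRD1 -0.052 to 0.17 for IgA against IgG, TXNRD1 -0.061 to 0.16 for IgA against untreated cells, SLC7A11 -0.036 to 0.013 for BDNF IgA, HMOX1 -0.029 to 0.071 and TXNRD1 -0.014 to 0.035 for TSPAN7 IgA, and GCLC -0.014 to 0.020, SOD2 -0.10 to 0.036 and BACH1 -0.049 to 0.043 between the specific antibodies.

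Same-numbered libraries of IgG and untreated cells in the first series had deviations correlated over 0.1 in all 3 pairs (0.158, 0.122 and 0.517). IgG replicates 1 and 2 correlated more with an untreated library of another number. In this comparison the fit with the block called 0 genes, as did that without it. In no other comparison were all 3 pairs over 0.1 (the others ran from -0.10 to 0.16), and the labels do not say what a number marks. With a replicate block OSGIN1 was called against IgG (0.83, edgeR adjusted p = 0.0416) and GCLM for IgA against untreated cells (0.33, adjusted p = 0.0455), and no other call of a member changed. Depth limits SRXN1 and OSGIN1, at 54 to 232 counts a library, and 3 libraries a group limit all calls near the threshold.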
